A study of Mus musculus with 6 samples.

Results

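The interleukin-1 family and its receptors were followed in colitis-associated tumors through 10 genes chosen by name, out of 54532 genes counted: the ligands Il1a, Il1b, Il18 and Il33, the antagonists Il1rn and Il18bp, and the receptors Il1r1, Il1r2, Il1rl1 and Il1rap. All 10 were found, and all 10 passed the filter on low values (0.5 FPKM or more on average, where FPKM is fragments per kilobase of gene, scaled to library depth). RNA-seq had been performed on 3 tumors of Tmem173fl/fl mice (labelled AOM_WT, genotype WT) and 3 tumors of Tmem173iΔmye mice (labelled AOM_CRE, genotype CRE). Both groups carried the loxP-flanked Tmem173 alleles, were given azoxymethane (AOM, a colon carcinogen) and cycles of dextran sulfate sodium (DSS, which injures the colon epithelium), and received tamoxifen once tumors had formed. The groups differed in the Lyz2-Cre ert2 transgene, which makes a tamoxifen-activated recombinase in myeloid cells and so is meant to remove STING, the product of Tmem173, from these cells alone. Ages at sampling were not given in the sources used here. The comparison asked how the loss of myeloid STING after tumor formation was accompanied by changes in tumor RNA. In bulk tumors, fewer cells of a type and less RNA per cell cannot be told apart. The labels do not say whether tumors of a group came from separate mice, and p-values then measure only the spread between these samples, which may be technical.

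IL-1α and IL-1β bind the receptor IL-1R1, which recruits the accessory protein IL-1RAcP (encoded by Il1rap) and signals through MyD88 to NF-κB. IL-33 uses the receptor ST2 (encoded by Il1rl1) with the same accessory protein, and IL-18 has receptor chains of its own. IL-1β and IL-18 are made as precursors that inflammasome caspase-1 cleaves, so their RNA level does not give the amount of active cytokine. The family is held in check by a receptor antagonist (Il1rn), a decoy receptor (Il1r2) and a soluble binding protein (Il18bp). In the gut, IL-18 is known mostly as an epithelial product, IL-1β as a product of monocytes and neutrophils, and IL-33 as a nuclear alarmin of stromal and epithelial cells.

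On GRCm38, the receptor genes Il1r2 (chr1:40074079-40125231), Il1r1 (chr1:40225080-40317257) and Il1rl1 (chr1:40429570-40465415) are neighbours on the plus strand. Il1a (chr2:129299610-129309972) and Il1b (chr2:129364570-129371139) lie on the minus strand, and Il1rn (chr2:24336853-24351494) on the plus strand of the same chromosome. The others are Il18 (chr9:50554827-50581840, plus), Il18bp (chr7:102014885-102018690, minus), Il33 (chr19:29925114-29960718, plus) and Il1rap (chr16:26581704-26730117, plus). Il1a shared 222 of its exon bases (11.2%) with the antisense gene Gm14023, Il1rap 552 (4.86%) with Gm20319, Il18bp 80 (2.64%) with Numa1 and Il1b 25 (1.31%) with Il1bos. All 4 partners lie on the opposite strand. The strand setting of the counting was not given in the sources used here, so without strand, reads from these stretches cannot be told apart.

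The 250 bases upstream of the start site are shown for Il1a and Il1b, the neighbouring IL-1 genes that were both highest in the same tumor, and for Il1rap, one of the genes whose groups did not overlap. The sequences are from RefSeq (GRCm38.p6), at chr2:129309973-129310222 (minus strand), chr2:129371140-129371389 (minus strand) and chr16:26581455-26581704 (plus strand). Capitals mark the motif matches described next.
Il1a: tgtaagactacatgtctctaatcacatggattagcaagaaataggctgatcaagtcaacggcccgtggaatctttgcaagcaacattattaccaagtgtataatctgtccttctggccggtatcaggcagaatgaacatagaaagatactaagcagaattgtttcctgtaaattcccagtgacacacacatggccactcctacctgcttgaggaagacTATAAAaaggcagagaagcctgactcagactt
Il1b: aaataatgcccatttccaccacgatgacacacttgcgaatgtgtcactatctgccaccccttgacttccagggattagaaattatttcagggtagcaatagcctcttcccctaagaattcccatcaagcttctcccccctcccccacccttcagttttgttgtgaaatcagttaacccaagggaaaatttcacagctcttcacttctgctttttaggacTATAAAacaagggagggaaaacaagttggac
Il1rap: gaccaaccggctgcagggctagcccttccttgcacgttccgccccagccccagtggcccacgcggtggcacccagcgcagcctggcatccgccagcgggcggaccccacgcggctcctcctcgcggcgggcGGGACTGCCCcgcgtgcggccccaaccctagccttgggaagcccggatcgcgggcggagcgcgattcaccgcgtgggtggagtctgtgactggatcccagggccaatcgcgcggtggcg

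The windows were searched on both strands for a TATA box (TATAAA, present in 12.4% of 32851 promoter windows of this length), an interferon-stimulated response element (ISRE, GAAANNGAAA, 2.98%), an NF-κB core (GGGANNNNCC, 17.6%) and a C/EBP core (TTGCNNAA, 9.56%). Il1a held the TATA box from 32 to 27 bases before its start and Il1b from 31 to 26 bases before it. Il1rap held an NF-κB match, GGGACTGCCC, 119 to 110 bases before its start, and no TATAAA. Among the other members, Il1rn also held an NF-κB match (GGGAGTGGCC) and Il18bp a C/EBP match (TTGCGGAA), 1 each, so no match overlapped another in these 5 windows. The windows of Il1r1, Il1rl1 and the later of the listed Il33 starts held C/EBP matches, and those of Il18 and both Il33 starts held TATAAA on one strand or the other. The RefSeq start of Il18bp lies 458 bases inside the deposited gene. A match is a description of letters and not a bound site.

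Each tumor had 15329810 to 16533732 gene counts. The targeted gene, Tmem173, had 1748, 2911 and 1705 counts in Tmem173fl/fl tumors 1 to 3 and 2291, 2245 and 1953 in Tmem173iΔmye tumors 1 to 3, with a log2 fold change of 0.0015 (SE 0.24), so whole tumor RNA did not tell the genotypes apart. Reads of Y-linked genes were present in 1 Tmem173fl/fl tumor (tumor 1) and 2 Tmem173iΔmye tumors (tumors 1 and 2), at 2655 to 3547 counts against 0 to 2 in the other 3. Markers of colon epithelium summed to between 12440 and 15690 CPM (counts scaled to library size by TMM) in every tumor. Within this sum Krt8 was near level at 4140 to 4750 CPM. Cdx2 ran from 19.4 to 75.6 CPM and Muc2 from 883 to 2430 CPM, both lowest in Tmem173fl/fl tumor 2. Single tumors stood apart in several of the lists, 3 of which are given here. The IL-1 response and neutrophil lists, given further below, were also highest in Tmem173iΔmye tumor 1. Tmem173iΔmye tumor 1 had 3323 CPM summed over 16 interferon-gamma response genes against 377.8 to 800.5 in the other 5. Tmem173fl/fl tumor 2 had 385.1 CPM of squamous epithelium markers against 72.75 to 133.4 in the others, and Tmem173iΔmye tumor 3 had 1013 CPM of mast cell markers against 63.86 to 285.6.

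By FPKM the family was led by Il18 and Il1rn. Averaged over the 6 tumors, Il18 had 46.6 FPKM, Il1rn 32.9, Il1b 19.2, Il33 16.1, Il1rl1 15.3, Il1r1 10.4, Il1a 5.51, Il18bp 4.35, Il1r2 2.82 and Il1rap 0.805. FPKM is a level per length, here over all annotated exon bases of a gene, so the order depends on that length. It was 1031 bases for Il18, 5535 for Il1rn, 1908 for Il1r2 and 11360 for Il1rap. In CPM, which is not per length, Il1rn averaged 168 and 199 in Tmem173fl/fl and Tmem173iΔmye tumors, and Il18 45.4 and 51.5. Il1rap averaged 7.8 and 10.6 CPM, above Il1r2 at 5.6 and 5.2. The top of the FPKM order, Il18 over Il1rn over Il1b, held for each neighbouring pair in 5 of 6 tumors. Il1b exceeded Il33 in only 2 of 6 and Il33 exceeded Il1rl1 in 4 of 6. The order of these 3 genes was therefore not separated by their spread. Only the lowest step, Il1r2 over Il1rap, held in 6 of 6 tumors. The accessory chain that IL-1 and IL-33 receptors share was thus the least abundant of the 10 transcripts per length.

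**Figure D1:**
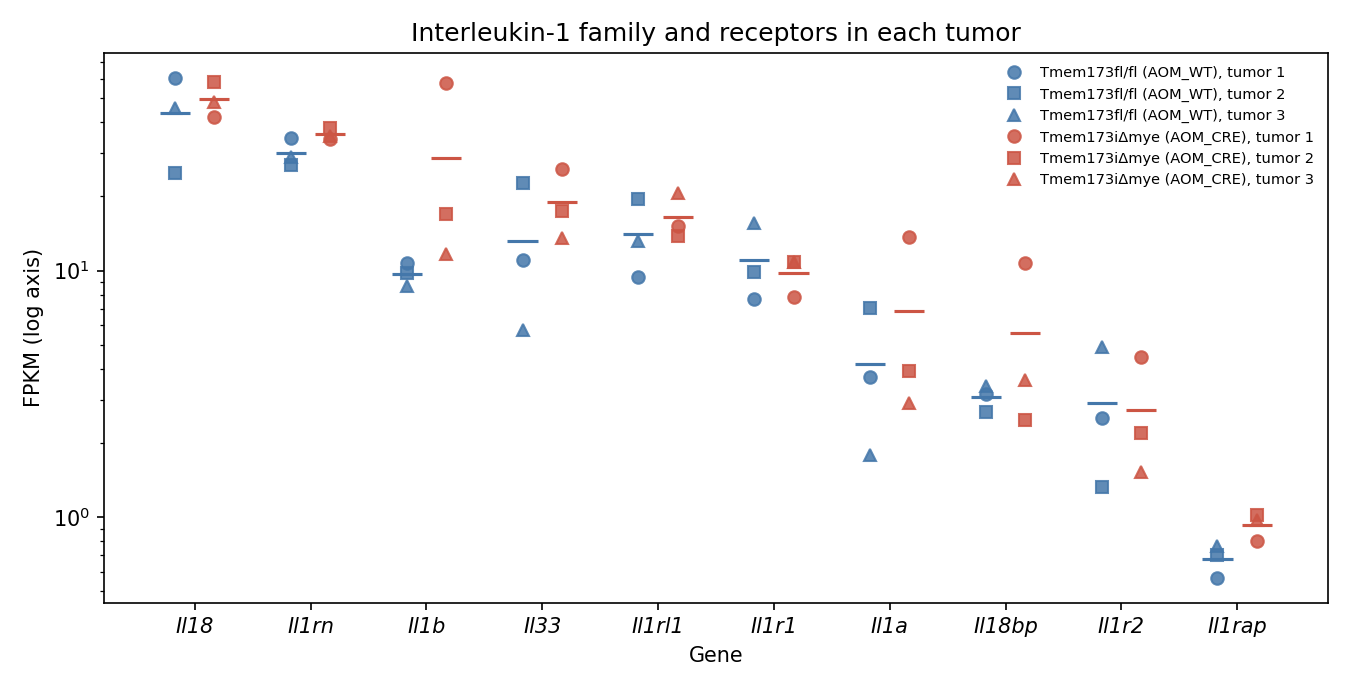
FPKM (log axis) of each of the 10 genes, ordered by mean level, with 1 point per tumor (blue, Tmem173fl/fl; red, Tmem173iΔmye) and a bar at each group's mean. Il1b and Il1rap are the genes whose red points all lie above the blue ones, and Il1b, Il1a and Il18bp each have 1 red point, tumor 1, far above the others.

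No member passed an adjusted p under 0.05 in the quasi-likelihood test of edgeR, adjusted by Benjamini-Hochberg over 16426 genes, as no gene did (0% of all tested). By the same test 1008 genes had an unadjusted p under 0.05, and DESeq2 called 27 genes at an adjusted p under 0.05. The study's own threshold, a log2 fold change of 1 or more in either direction with an unadjusted p of at most 0.05, was met by 1 of the 10 members, Il1b. Over all genes it was met by 2.12%, with 1.26% higher and 0.864% lower in Tmem173iΔmye tumors. The groups did not overlap for 2 members, Il1b and Il1rap, both higher in Tmem173iΔmye tumors, against 12.5% of all genes (6.03% higher and 6.47% lower). In direction, 8 of the 10 members lay above 0, with a median log2 fold change of 0.35, beside 49.4% of all genes and a median of -0.0042. Without Tmem173iΔmye tumor 1, 6 of the 10 lay above 0 and the median was 0.26.

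Il1b, which encodes the inducible pyrogenic cytokine IL-1β, had the largest log2 fold change of the 10. It had 10.7, 9.81 and 8.66 FPKM in Tmem173fl/fl tumors 1 to 3 and 57.5, 17.0 and 11.7 in Tmem173iΔmye tumors 1 to 3, from 320, 280 and 277 counts and 1743, 518 and 352 counts. All 3 Tmem173iΔmye tumors lay above all 3 Tmem173fl/fl tumors, but tumor 1 was far above the other 2 of its group. Mean CPM was 18.7 ± 2.09 (SD, n = 3) and 55.0 ± 47.9 (SD, n = 3), a log2 fold change of 1.56 (SE 0.54, unadjusted p = 0.0219, adjusted p = 0.742 in the quasi-likelihood test of edgeR, adjusted by Benjamini-Hochberg). Without Tmem173iΔmye tumor 1 the log2 fold change of Il1b was 0.56 (SE 0.22, edgeR unadjusted p = 0.0396), which is under the fold limit. The size of the Il1b difference therefore rested on 1 tumor, while its direction was the same in the other 2. Among tumors with Y-linked reads (2 against 1) the log2 difference of Il1b was 1.53, and among those without (1 against 2) it was 0.35, with no test. Both had to lie above 0, since the groups did not overlap. When Y-linked reads entered the fit as a covariate, the log2 fold change of Il1b was 1.07 (edgeR unadjusted p = 0.0926). Without Tmem173fl/fl tumor 2 the edgeR unadjusted p of Il1b was 0.0641, and without Tmem173fl/fl tumor 3 it was 0.0667, both over the limit.

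Il1a encodes IL-1α, which acts from dying cells as well as by secretion. It had 3.70, 7.08 and 1.78 FPKM in Tmem173fl/fl tumors 1 to 3 and 13.7, 3.93 and 2.92 in Tmem173iΔmye tumors 1 to 3, the widest range of any member (7.66 times from lowest to highest). The groups overlapped, with Tmem173fl/fl tumor 2 above 2 of the Tmem173iΔmye tumors. The log2 fold change of Il1a was 0.71 (SE 0.67, edgeR unadjusted p = 0.319) and turned to -0.28 without Tmem173iΔmye tumor 1. Within the strata of Y-linked reads the log2 differences were 0.97 and -0.28.

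Il33 encodes the alarmin IL-33, stored in nuclei and set free on damage. It had 11.0, 22.7 and 5.74 FPKM in Tmem173fl/fl tumors 1 to 3 and 25.8, 17.5 and 13.6 in Tmem173iΔmye tumors 1 to 3. Tmem173fl/fl tumor 2 reached into the Tmem173iΔmye range, and the other 2 Tmem173fl/fl tumors lay below it. The log2 fold change of Il33 was 0.53 (SE 0.46, edgeR unadjusted p = 0.285). Leaving out Tmem173fl/fl tumor 2, the one with the most squamous marker RNA, gave 1.17 (SE 0.37, edgeR unadjusted p = 0.0195, adjusted p = 0.745 after Benjamini-Hochberg adjustment), which is past the study's threshold. Other omissions went the other way, to 0.18 without Tmem173fl/fl tumor 3 and 0.25 without Tmem173iΔmye tumor 1, so the size of the Il33 value depended on which tumors entered. In Tmem173fl/fl tumor 2 the basal keratin Krt5 stood at 83.5 CPM and at 0 to 7.83 CPM in the other 5. The part of the squamous markers in the Il33 value was not tested.

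Il18 encodes IL-18, which acts on T and NK cells and the epithelium. It had 60.5, 24.8 and 45.5 FPKM in Tmem173fl/fl tumors 1 to 3 and 42.1, 58.4 and 48.3 in Tmem173iΔmye tumors 1 to 3. The other 5 tumors lay between 42.1 and 60.5 FPKM and Tmem173fl/fl tumor 2 was the lowest. The log2 fold change of Il18 was 0.18 (SE 0.31, edgeR unadjusted p = 0.571) and ran from -0.10 without that tumor to 0.50 without Tmem173fl/fl tumor 1.

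The make-up of the ligands differed between tumors. Il18 made up 70.4%, 38.5% and 73.8% of the summed FPKM of the 4 ligands in Tmem173fl/fl tumors 1 to 3 and 30.3%, 60.3% and 63.2% in Tmem173iΔmye tumors 1 to 3. It was the largest share in every tumor but Tmem173iΔmye tumor 1, where Il1b led with 41.4%, against 12.5% to 17.5% in the other 5. In Tmem173fl/fl tumor 2 the share of Il33 was 35.3%, close to that of Il18.

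Il1rn encodes IL-1Ra, which occupies IL-1R1 without signalling. It was the steadiest member, at 34.4, 26.9 and 29.0 FPKM in Tmem173fl/fl tumors 1 to 3 and 34.3, 37.8 and 35.2 in Tmem173iΔmye tumors 1 to 3. The groups overlapped by a narrow margin, since Tmem173fl/fl tumor 1 lay just above Tmem173iΔmye tumor 1. The log2 fold change of Il1rn was 0.25 (SE 0.14, edgeR unadjusted p = 0.117), and 0.16 to 0.36 on leaving out each tumor.

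Il18bp encodes the soluble protein that captures IL-18 and is a known interferon-gamma target. It had 3.17, 2.67 and 3.41 FPKM in Tmem173fl/fl tumors 1 to 3 and 10.7, 2.48 and 3.60 in Tmem173iΔmye tumors 1 to 3. Tmem173iΔmye tumor 1 stood alone, and the other 5 lay between 2.48 and 3.60 FPKM. The log2 fold change of Il18bp was 0.86 (SE 0.50, edgeR unadjusted p = 0.129), -0.026 without that tumor and 1.21 (edgeR unadjusted p = 0.0252, past the study's threshold) without Tmem173iΔmye tumor 2. The tumor with the highest Il18bp was also the one with the highest interferon-gamma response genes, and their part in the Il18bp value was not tested.

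Il1rap was the only receptor among the members whose groups did not overlap. It had 0.569, 0.700 and 0.766 FPKM in Tmem173fl/fl tumors 1 to 3 and 0.798, 1.02 and 0.975 in Tmem173iΔmye tumors 1 to 3. Unlike Il1b, it did not owe its difference to Tmem173iΔmye tumor 1, which was the lowest of its group. The log2 fold change of Il1rap was 0.45 (SE 0.22, edgeR unadjusted p = 0.0705, adjusted p = 0.742 with Benjamini-Hochberg adjustment), and 0.55 without that tumor. Within the strata of Y-linked reads the log2 differences of Il1rap were 0.65 and 0.42. Both had to lie above 0, since the groups did not overlap. The counts behind these values were low, from 101 to 185 per tumor.

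Il1rl1 encodes ST2, the IL-33 receptor of mast cells, regulatory T cells and type 2 lymphocytes. It had 9.46, 19.6 and 13.2 FPKM in Tmem173fl/fl tumors 1 to 3 and 15.2, 13.9 and 20.6 in Tmem173iΔmye tumors 1 to 3. The ranges overlapped throughout, and the log2 fold change of Il1rl1 was 0.23 (SE 0.27, edgeR unadjusted p = 0.41). It was 0.54 (edgeR unadjusted p = 0.0497) without Tmem173fl/fl tumor 2, 0.47 (edgeR unadjusted p = 0.0414) with Y-linked reads as a covariate, 0.045 without Tmem173iΔmye tumor 3 and 0.019 without Tmem173fl/fl tumor 1, each under the study's fold limit. The highest value was in Tmem173iΔmye tumor 3, where the 10 mast cell markers summed to 1013 CPM against 63.86 to 285.6 in the other 5, but Tmem173fl/fl tumor 2, with 111.3 CPM of these markers, was nearly as high.

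Il1r1, the signalling receptor of IL-1, had 7.67, 9.85 and 15.6 FPKM in Tmem173fl/fl tumors 1 to 3 and 7.81, 10.8 and 10.8 in Tmem173iΔmye tumors 1 to 3. Il1r2, the decoy that binds IL-1 without a signalling domain, had 2.52, 1.33 and 4.91 FPKM and 4.45, 2.19 and 1.53 FPKM in the same order. Both were highest in Tmem173fl/fl tumor 3 and overlapped between the groups. The log2 fold changes were -0.17 (SE 0.27, edgeR unadjusted p = 0.55) for Il1r1 and -0.11 (SE 0.55, edgeR unadjusted p = 0.854) for Il1r2. Neither sign was stable, since without Tmem173fl/fl tumor 3 they were 0.17 and 0.50.

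**Figure D2:**
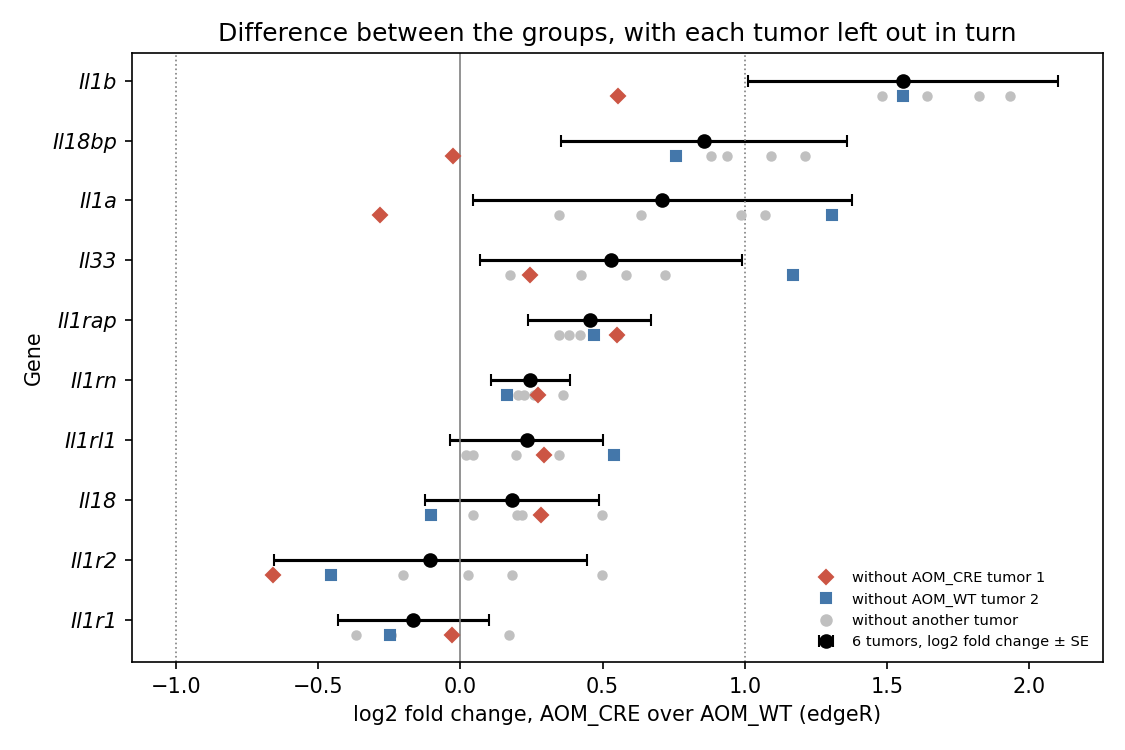
Log2 fold change of each gene, Tmem173iΔmye over Tmem173fl/fl, from all 6 tumors (black, with SE), and with 1 tumor left out (small marks); dotted lines mark an absolute value of 1. Without Tmem173iΔmye tumor 1 (red) Il1b moved from 1.56 to 0.56, Il18bp from 0.86 to -0.026 and Il1a from 0.71 to -0.28, and without Tmem173fl/fl tumor 2 (blue) Il33 moved from 0.53 to 1.17.

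The balance between agonist and antagonist was compared within each tumor, which removes differences in depth. The FPKM ratio of Il1b to Il1rn was 0.312, 0.365 and 0.298 in Tmem173fl/fl tumors 1 to 3 and 1.68, 0.449 and 0.332 in Tmem173iΔmye tumors 1 to 3. Per length, antagonist RNA thus exceeded Il1b RNA in 5 of 6 tumors, and Tmem173iΔmye tumor 1 was the exception. The length is that of all annotated exon bases, 5535 for Il1rn and 1907 for Il1b. In CPM, which is not per length, Il1rn was above Il1b in that tumor too (190 against 110). The groups overlapped, and the mean log2 ratio was -1.63 ± 0.15 (SD, n = 3) and -0.67 ± 1.24 (SD, n = 3), a difference of 0.96 (exact two-sided permutation p = 0.2, adjusted p = 0.8 by Benjamini-Hochberg over 4 ratios). With 3 tumors per group this test cannot go below 0.1. The difference was 0.25 without Tmem173iΔmye tumor 1, and on leaving out each of the other tumors it was 0.90 to 1.42.

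The other 3 ratios did not separate the groups either. Il18 exceeded its binding protein Il18bp 19.1, 9.29 and 13.3 times in Tmem173fl/fl tumors 1 to 3 and 3.93, 23.5 and 13.4 times in Tmem173iΔmye tumors 1 to 3. The lowest ratio was again in Tmem173iΔmye tumor 1, where Il18bp was high, and the log2 difference was -0.31 (exact permutation p = 0.9, adjusted p = 0.9). The ratio of Il1r1 to its decoy Il1r2 was 3.05, 7.40 and 3.17 against 1.75, 4.94 and 7.11, a log2 difference of -0.072 (exact permutation p = 0.9, adjusted p = 0.9). Il33 to its receptor Il1rl1 gave 1.16, 1.16 and 0.436 against 1.70, 1.26 and 0.659, a log2 difference of 0.42 (exact permutation p = 0.5, adjusted p = 0.9). The differences without Tmem173iΔmye tumor 1 were 0.42 for Il18 to Il18bp, 0.51 for Il1r1 to Il1r2 and 0.12 for Il33 to Il1rl1, so the first 2 changed sign. That of Il1r1 to Il1r2 was also above 0, at 0.35, without Tmem173fl/fl tumor 2, and that of Il33 to Il1rl1 was -0.048 without Tmem173fl/fl tumor 3. In each of these ratios the highest and lowest tumors of a group lay further apart than the group means.

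**Figure D3:**
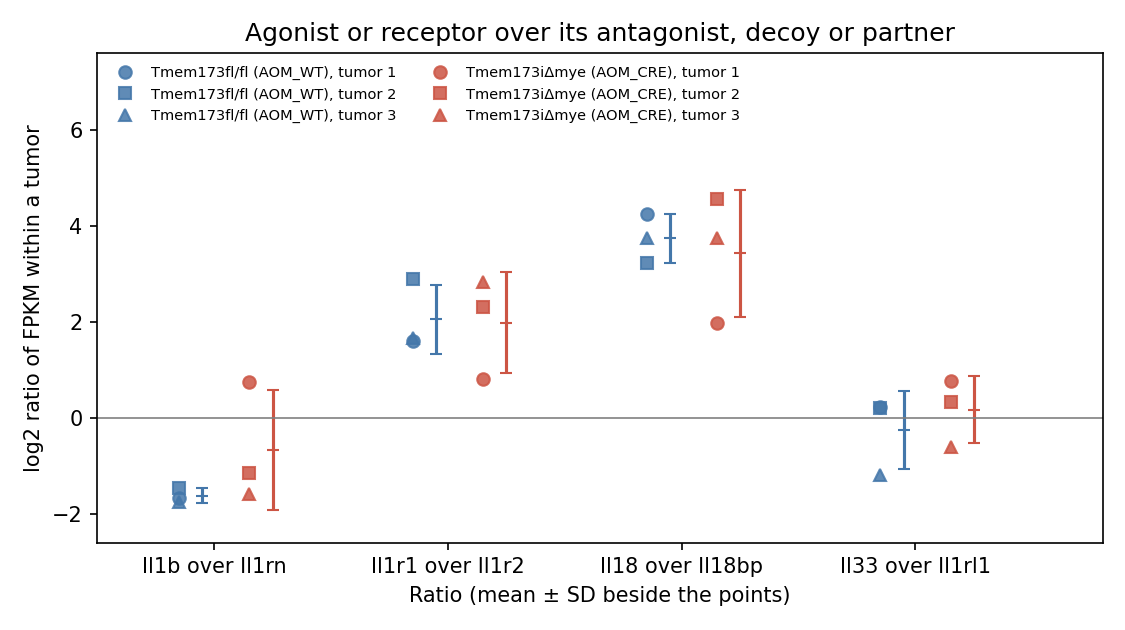
Log2 ratio of FPKM within each tumor for 4 pairs of genes, with 1 point per tumor (blue, Tmem173fl/fl; red, Tmem173iΔmye) and the mean ± SD of each group beside the points. The groups overlap in all 4, and Tmem173iΔmye tumor 1 (red circle) is the only tumor with Il1b above Il1rn in FPKM.

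The receptors and ligands not yet described were mostly low. Of 11 further family ligands and receptors, 6 passed the filter and none met the study's threshold (4 above 0, median log2 fold change 0.062). Il18r1, the ligand-binding chain of the IL-18 receptor, had 2.73, 1.0 and 2.76 CPM in Tmem173fl/fl tumors and 3.60, 3.15 and 3.25 CPM in Tmem173iΔmye tumors, without overlap (log2 fold change 0.62, SE 0.42, edgeR unadjusted p = 0.18). It was the 1 gene of the 6 without overlap, beside 12.5% of all genes. The IL-36 genes were scarce: Il1f9 (IL-36γ) had 2.04 to 6.49 CPM, and Il1f5 and Il1f8 were under the filter. Sigirr, an orphan receptor that dampens IL-1 signalling, was almost level at 47.7 to 51.0 CPM in all 6 tumors.

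Of 14 inflammasome and processing genes, 10 lay above 0 (median log2 fold change 0.21) and none met the study's threshold. Casp8, a protease that can also cleave IL-1β, had 125, 126 and 127 CPM in Tmem173fl/fl tumors and 192, 149 and 139 CPM in Tmem173iΔmye tumors, without overlap (log2 fold change 0.34, SE 0.15, edgeR unadjusted p = 0.0513). Casp1, which processes IL-1β and IL-18, had 78.8, 42.2 and 64.0 CPM and 105, 62.3 and 54.9 CPM, and the groups overlapped. Nlrp3, the sensor best known for IL-1β release, stood at 3.37 to 8.52 CPM, with the highest value in Tmem173iΔmye tumor 1. Of 21 signalling genes, 8 lay above 0 (median -0.060) and none met the threshold. The lowest p of the list belonged to Traf6, the ubiquitin ligase below the receptor, which was lower in Tmem173iΔmye tumors (-0.35, SE 0.17, edgeR unadjusted p = 0.0766), with overlap. Ikbkb, a kinase of the NF-κB pathway, was lower without overlap (-0.12, SE 0.11, edgeR unadjusted p = 0.313). The kinase genes Irak4 (0.26, SE 0.13) and Irak2 (0.20, SE 0.12) were higher without overlap, with edgeR unadjusted p = 0.0843 and 0.124. Without overlap were thus 1 of 14 inflammasome genes, and 2 higher and 1 lower of 21 signalling genes. Over all genes it was 12.5% (6.03% higher and 6.47% lower). Without Tmem173iΔmye tumor 1 the inflammasome list had 7 of 14 above 0 and a median of -0.018.

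Of 15 genes that IL-1 is known to induce, 12 were highest in Tmem173iΔmye tumor 1, the tumor with the most Il1b, and the other 3 (Cxcl5, Ptgs2 and Ccl20) in Tmem173fl/fl tumor 2. Of the 15, 14 were tested, 12 lay above 0 (median log2 fold change 0.73), and 1 met the study's threshold. This was Saa3, an acute phase protein, with 40.2, 31.2 and 56.9 CPM in Tmem173fl/fl tumors and 287, 56.8 and 64.6 CPM in Tmem173iΔmye tumors (log2 fold change 1.67, SE 0.61, edgeR unadjusted p = 0.0272). The matrix protease Mmp3 and the monocyte chemokine Ccl2 followed, with log2 fold changes of 1.43 (edgeR unadjusted p = 0.0649) and 1.05 (edgeR unadjusted p = 0.079). Summed over the list, Tmem173iΔmye tumor 1 had 1256 CPM and the other 5 tumors 483.7 to 702.2 CPM. Without that tumor 8 of the 14 lay above 0, with a median of 0.028. The share of all genes that were highest in Tmem173iΔmye tumor 1 was not counted. In other lists it was 16 of 16 interferon-gamma response, 5 of 6 endothelial, 7 of 14 inflammasome, 4 of 10 colon epithelium and 0 of 6 smooth muscle genes. The part of Il1b in the IL-1 response values was not tested.

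Of 10 type 2 genes known downstream of IL-33, 7 were tested and none met the threshold (3 above 0, median -0.17). Il5, which acts on eosinophils, and Retnla had 0 counts in every tumor, and Il13 had at most 2 counts. Areg, an epithelial growth factor that ST2-bearing cells can release, had 51.4, 25.9 and 28.6 CPM in Tmem173fl/fl tumors and 97.5, 55.5 and 42.3 CPM in Tmem173iΔmye tumors (log2 fold change 0.88, SE 0.36, edgeR unadjusted p = 0.0425). It stayed under the fold limit.

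Of 16 interferon-gamma response genes, all 16 lay above 0 (median log2 fold change 1.76) and 9 met the study's threshold, led by the GTPases Igtp (2.67) and Gbp5 (2.03) and the chemokine Cxcl9 (3.01). Their unadjusted p-values from edgeR were 0.0175, 0.0219 and 0.0227. Without Tmem173iΔmye tumor 1, the 16 genes were still above 0, with a median of 0.42, and none met the threshold. Without Tmem173fl/fl tumor 2 the median was 1.52 and again none met it. Tmem173iΔmye tumor 1 was also the tumor with the highest Il1b, Il1a, Il33 and Il18bp.

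Markers of cells that make or sense these cytokines were followed beside them. The 10 neutrophil markers summed to 244.0, 108.8 and 224.2 CPM in Tmem173fl/fl tumors and 438.9, 218.1 and 142.2 CPM in Tmem173iΔmye tumors, highest in the tumor with the most Il1b. Of these 10 genes 9 lay above 0 (median log2 fold change 0.61), but 3 of 10 did so without Tmem173iΔmye tumor 1 (median -0.25). The gene below 0 in all 6 tumors was Ly6g (-0.34), with 102, 38.1 and 87.3 CPM in Tmem173fl/fl tumors and 62.7, 60.4 and 56.9 CPM in Tmem173iΔmye tumors. In Tmem173iΔmye tumor 1, 8 of the 10 were highest. Ly6g was highest in Tmem173fl/fl tumor 1, and Mmp9 in Tmem173iΔmye tumor 2 (74.7 CPM). None of the 10 was at 0 in all tumors, and their part in the Il1b value was not tested. The 10 macrophage and monocyte markers summed to 362.1, 288.0 and 363.6 CPM and 464.6, 439.8 and 304.9 CPM, with 8 above 0 (median 0.26). The median was 0.13 without Tmem173iΔmye tumor 1 and 0.12 without Tmem173fl/fl tumor 2. The markers did not share a tumor: C1qa, C1qb, C1qc and Ly6c2 were highest in Tmem173iΔmye tumor 1 and Adgre1, Csf1r, Cx3cr1 and Ccr2 in Tmem173iΔmye tumor 2. Cd68 was highest in Tmem173fl/fl tumor 3 (25.2 CPM, log2 fold change -0.081) and Mrc1 in Tmem173fl/fl tumor 2 (29.5 CPM, log2 fold change -0.025).

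Mast cell markers lay above 0 in 10 of 10 genes (median 1.56) and none met the threshold. Of the 10, 9 were highest in Tmem173iΔmye tumor 3 (Hdc was not), and without that tumor 1 of 10 lay above 0, with a median of -0.11. Of 10 T and NK cell markers 6 were tested and all 6 lay above 0 (median 0.74), with Gzmb, the cytotoxic granule protease, past the study's threshold at 3.19, 1.73 and 1.38 CPM against 7.58, 5.23 and 5.67 CPM (log2 fold change 1.55, SE 0.38, edgeR unadjusted p = 0.00379). The T and NK median was 0.40, with 5 of 6 above 0, without Tmem173fl/fl tumor 2. In the stroma, the fibroblast matrix gene Dpt was past the threshold and higher (1.08, SE 0.20, edgeR unadjusted p = 0.000812), and the muscle filament gene Des was past it and lower (-1.01, SE 0.40, edgeR unadjusted p = 0.0342). Fibroblast markers had 8 of 9 tested genes above 0 (median 0.29) and smooth muscle markers 1 of 6 (median -0.51). Regulatory T cell markers had 3 of 4 tested genes above 0 (median 0.34), endothelial markers 4 of 6 (0.22), colon epithelium markers 9 of 10 (0.084) and squamous markers 0 of 7 (-0.44). The squamous median was 0.47 without Tmem173fl/fl tumor 2, with 5 of 7 above 0.

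**Figure D4:**
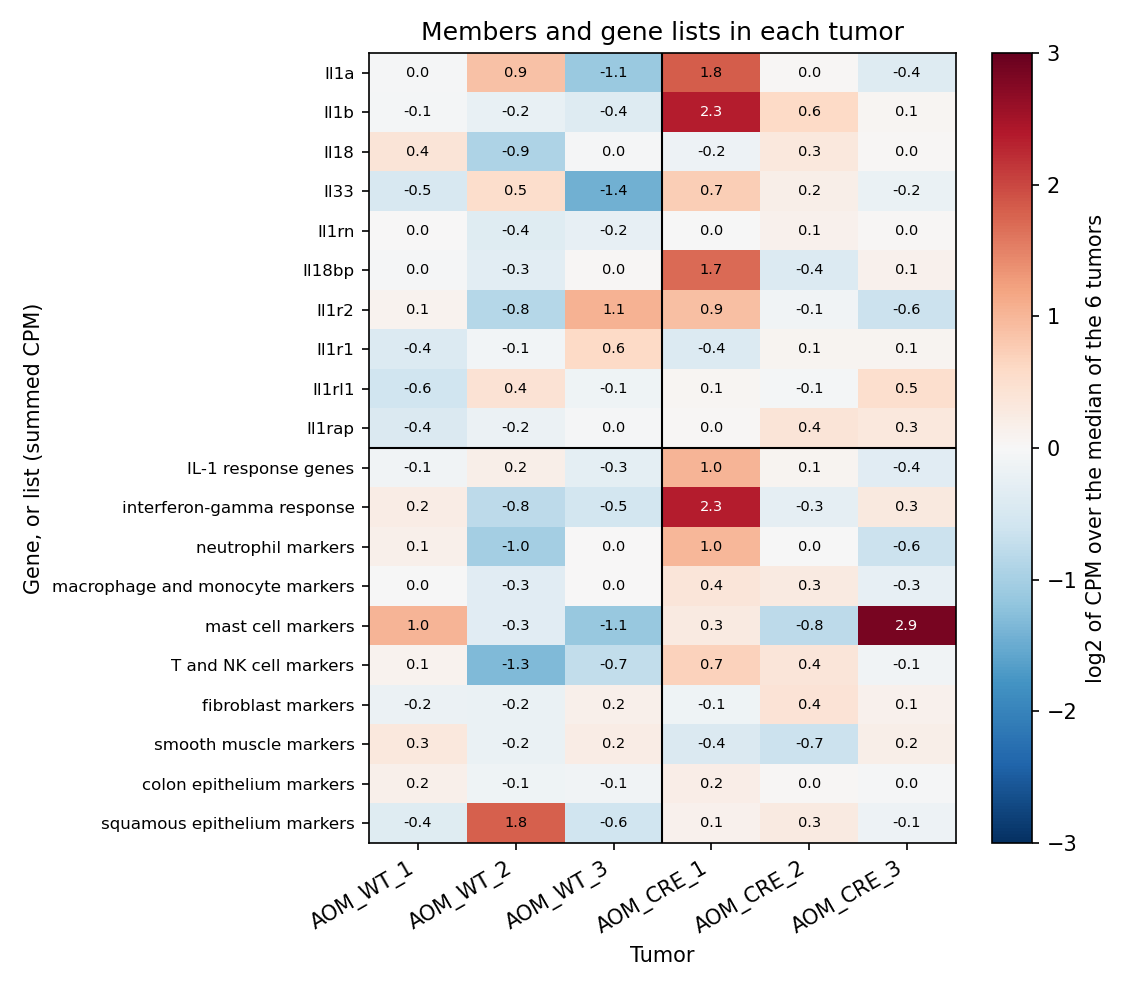
Log2 of the CPM of each family gene (upper rows) and of the summed CPM of gene lists (lower rows) over the median of the 6 tumors, with 1 column per tumor. Tmem173iΔmye tumor 1 has the highest Il1a, Il1b, Il33 and Il18bp together with the highest IL-1 response, interferon-gamma response and neutrophil sums, and the mast cell sum peaks in Tmem173iΔmye tumor 3.

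Genes of like pattern were taken as those with the highest Pearson r of log2(CPM + 1) over the 6 tumors, among genes averaging 1 FPKM or more. The points share libraries, and with 6 points many genes come close: r was over 0.9 with Il1b for 497 of 14231 genes and with Il1rap for 45 of 14232. Nearest to Il1b were Emd (0.997), Snf8 (0.994) and Psmd14 (0.993), housekeeping-type genes of the nuclear envelope, endosomal sorting and the proteasome, each highest in Tmem173iΔmye tumor 1. Il18bp lay nearest to Ppa1 (0.996), Ebna1bp2 (0.995) and the interferon-induced GTPase Tgtp1 (0.992), which had 106 CPM in Tmem173iΔmye tumor 1 and 4.80 to 12.1 CPM elsewhere. Nearest to Il18 were Clcn2 (0.995), Unc119 (0.994) and Sult1b1 (0.991). Clcn2 is an epithelial chloride channel, and all 3 were lowest in Tmem173fl/fl tumor 2, as Il18 was.

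Il1a lay nearest to Cdca5 (0.994), Knstrn (0.994) and Ndufa12 (0.990), and Il33 to Tor1aip2 (0.997), Tpx2 (0.991) and Zdhhc2 (0.990). Cdca5, Knstrn and Tpx2 are genes of chromosome cohesion and the mitotic spindle. For the antagonist Il1rn they were 1110019D14Rik (0.993), the pseudogene Gm4332 (0.992) and Plin2 (0.988). For the receptors they were Chsy3 (0.990), Ephx4 (0.988) and Rmdn1 (0.980) with Il1r1, Ift22 (0.987), Nudt22 (0.986) and Ninj1 (0.985) with Il1r2, Pelp1 (0.980), Pwp1 (0.978) and Icmt (0.972) with Il1rl1, and Mrpl10 (0.979), Dhx57 (0.974) and Iba57 (0.973) with Il1rap. Between members, the highest r was 0.889 for Il1a with Il33, 0.870 for Il1b with Il18bp and 0.833 for Il1rn with Il18. The first of these pairs was high in Tmem173iΔmye tumor 1 and Tmem173fl/fl tumor 2 and lowest in Tmem173fl/fl tumor 3.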

How the data were processed

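Poly(A) RNA of 6 tumors was sequenced by the authors. Per the labels and methods, reads were cleaned with fastp, aligned to GRCm38 with HISAT2 2.0.5 and assigned to genes with featureCounts 1.5.0-p3. The authors deposited 1 table with the read count and the FPKM of each gene in each tumor. It also holds the authors' group means as a normalized signal, their log2 fold changes and their p-values from DESeq2 1.20.0, none of which was used here. All count and FPKM columns matched a sample title.

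The 16426 genes averaging 0.5 FPKM or more entered the count test of edgeR 4.0.16 (R 4.3.3; quasi-likelihood test, TMM, group as the only term, Benjamini-Hochberg adjustment). The SE was taken from the log2 fold change and its F statistic. Totals of 15329810 to 16533732 counts limit precision mainly for genes with few reads. The code was tested on simulated data. Ratios were compared by exact permutation (scipy 1.17.1). Alternatives were all genes unfiltered, a limit of 1 FPKM, DESeq2 1.42.0, limma 3.58.1 on log2(FPKM + 1) and log2(FPKM + 0.1), a replicate block, Y-linked reads (over 100 counts) as a covariate and leaving out each tumor. Recomputing the lists in each fit was added after seeing the data.

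The members, lists and naming rule were chosen with earlier results of these data known. Named are all 10 members, up to 3 genes of each other list with the lowest p, and for each member the 3 genes of nearest pattern. Il1f5, Il1f8, Il1f9, Sigirr, Ikbkb, Casp1, Cxcl5, Ptgs2, Ccl20, Hdc, C1qb, C1qc, Adgre1, Csf1r, Cx3cr1, Nlrp3, Il5, Il13 and Retnla were named after their values were seen. So were Cd68, Mrc1, Ly6g, Mmp9, Krt8, Cdx2 and Muc2. The IL-36 genes were matched through RefSeq synonyms. All 185 listed entries were found. Promoter sequences came from RefSeq.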

Additional observations from a re-analysis of the deposited data

How the results depend on the processing

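No gene was called at an adjusted p under 0.05 in edgeR with the filter. Without the filter 6 genes were called, DESeq2 called 27, and leaving out each tumor gave 0 to 1. The 349 genes past the study's threshold became 872 without the filter, 131 with limma on log2(FPKM + 1), 211 with Y-linked reads as a covariate and 218 to 636 on leaving out each tumor. The 1 member past it became 0 with limma on log2(FPKM + 1), limma on log2(FPKM + 0.1) and the Y-linked covariate, and 0 to 2 on leaving out each tumor. The cause of these moves was not tested, other than that fewer samples or other genes entered.

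On leaving out each tumor, Il1a ranged from -0.28 to 1.31, Il1r1 from -0.37 to 0.17 and Il1r2 from -0.66 to 0.50. The sign turned for Il1a (-0.28) and Il18bp (-0.026) without Tmem173iΔmye tumor 1, for Il18 (-0.10) without Tmem173fl/fl tumor 2, for Il1r1 with the Y-linked covariate (0.021) and without Tmem173fl/fl tumor 3 (0.17), and for Il1r2 without Tmem173fl/fl tumor 3 (0.50), Tmem173iΔmye tumor 2 (0.027) and Tmem173iΔmye tumor 3 (0.18). Il1b kept its direction in every alternative run, at 0.56 to 1.93. So did Il1rn (0.16 to 0.36), Il1rl1 (0.019 to 0.54) and Il33 (0.18 to 1.17). Il1rap kept its direction, at 0.20 to 0.56, in every run it entered, as it was under the limit of 1 FPKM. For Il1b and Il1rap the groups did not overlap, so leaving out a tumor could not turn the sign.

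With a replicate block, 0 genes were called and 377 passed the study's threshold (251 higher and 126 lower). Genes with an edgeR unadjusted p under 0.05 rose from 1008 to 1504, and the lowest adjusted p fell from 0.742 to 0.24. Il1b was then at 1.21 (SE 0.37, edgeR unadjusted p = 0.0150). Same-numbered tumors correlated in their deviations at 0.315, 0.00846 and 0.154. Tumors of different number ran from -0.374 to 0.223, the highest being Tmem173fl/fl tumor 2 with Tmem173iΔmye tumor 3. The titles do not say that equal numbers mark a pair, and so few values cannot settle it. Depth limits genes with few counts, such as Il1r2, with 38 to 157 counts per tumor, and Il1a, with 59 to 428.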
